A study of Mus musculus with 495 samples.

Results

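The 42 genes described here act in DNA replication (19 genes) and in mitosis (23 genes). They were taken as a list of gene symbols, and all 42 were rows of a count table of 23002 genes, so none was dropped. The table holds single cells of mouse embryonic pancreas, read with Smart-seq2, a full-length method with 1 cell per well and no molecular identifiers. The 495 cells came from 7 plates named EA01 to EA07. At E15.5 (days of embryonic development) the mice were of the Neurog3-eGFP knock-in line, in which a green fluorescent protein stands at the locus of Neurog3, the factor that starts the endocrine fate. Plates EA01 and EA03 carried the plate code Neurog3 (73 and 70 cells), plates EA02 and EA05 the code endocrine (72 and 85 cells) and plate EA04 the code duct (66 cells). At E17.5 plates EA06 and EA07 (57 and 72 cells) carried the code Neurog3-cre and the genotype Neurog3-Cre, Rosa-mTmG, in which cells that have made the recombinase under Neurog3 and their progeny switch on a membrane reporter. All 4 groups are pancreas of mice with an altered Neurog3 gene or a Neurog3 transgene, and no group of unmodified mice was used here. In the table's header the wells of EA06 and EA07 are also named after the knock-in line; the grouping used here is that of the labels. Since no label ties a cell to an embryo, litter or culture, a group is a single sample, and no test between groups was run.

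A dividing cell copies its DNA in S phase and separates the copies in M phase. Before S phase the factors Cdc6 and Cdt1 load the Mcm2 to Mcm7 helicase onto DNA, and during S phase the helicase, clamp, clamp loader and nucleotide-making enzymes work together. Cyclins with Cdk1, the Aurora and polo kinases, kinesins and kinetochore proteins then drive mitosis. In the embryonic pancreas, acinar and duct progenitors divide, and cells that switch on Neurog3 are known to leave the cell cycle as they become endocrine.

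The 2 lists are known to be driven by different promoter elements, E2F sites before S phase and the pair of a CHR element (cell cycle genes homology region) and CCAAT boxes before mitosis, so promoters are shown for the 4 members of each list with the highest level on the duct plate among those whose promoter matched and holds such an element. Sequences are from RefSeq on GRCm38.p6, 250 bases before to 50 bases after a start site, and 36 of the 42 members matched (38 promoters, since Mcm7 and Uhrf1 have 2). Motifs were searched on both strands. The CHR motif was TTTGAA or else TTCGAA, the E2F motif was TTCCCGC or else TTGGCGC or else TTCGCGC or else TTGCCGC, and the other was CCAAT; E2F motifs on opposite strands overlap in the Mcm6 promoter. In the 4 replication promoters that follow, capitals mark E2F motifs on either strand.
Mcm6 (chr1:128359656-128359955, minus strand): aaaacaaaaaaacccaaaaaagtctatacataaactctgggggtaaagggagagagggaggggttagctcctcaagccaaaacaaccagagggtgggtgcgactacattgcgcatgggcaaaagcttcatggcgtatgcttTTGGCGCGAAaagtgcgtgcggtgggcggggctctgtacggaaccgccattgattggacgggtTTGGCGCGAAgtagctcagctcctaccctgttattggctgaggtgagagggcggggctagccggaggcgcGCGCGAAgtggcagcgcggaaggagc
Rrm2 (chr12:24708004-24708303, plus strand): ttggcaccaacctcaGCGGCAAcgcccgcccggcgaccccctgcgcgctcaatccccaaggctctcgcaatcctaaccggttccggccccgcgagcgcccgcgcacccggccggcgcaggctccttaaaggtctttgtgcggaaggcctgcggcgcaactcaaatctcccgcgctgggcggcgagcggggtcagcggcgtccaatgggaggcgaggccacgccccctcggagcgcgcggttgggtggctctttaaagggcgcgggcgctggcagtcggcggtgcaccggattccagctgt
Rrm1 (chr7:102441445-102441744, plus strand): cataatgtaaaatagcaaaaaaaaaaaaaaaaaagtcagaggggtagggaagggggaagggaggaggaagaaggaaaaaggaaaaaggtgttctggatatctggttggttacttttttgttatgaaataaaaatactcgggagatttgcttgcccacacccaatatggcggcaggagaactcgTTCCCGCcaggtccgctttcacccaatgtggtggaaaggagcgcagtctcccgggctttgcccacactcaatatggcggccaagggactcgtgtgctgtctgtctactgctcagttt
Mcm7 (chr5:138171217-138171516, minus strand): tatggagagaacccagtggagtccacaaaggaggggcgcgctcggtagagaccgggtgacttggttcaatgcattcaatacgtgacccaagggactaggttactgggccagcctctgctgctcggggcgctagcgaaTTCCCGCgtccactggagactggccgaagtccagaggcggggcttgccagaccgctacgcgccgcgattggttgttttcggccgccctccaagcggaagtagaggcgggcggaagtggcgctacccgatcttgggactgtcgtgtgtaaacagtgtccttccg

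In the 4 mitosis promoters that follow, capitals mark CHR motifs and E2F motifs on either strand. Top2a and Ube2c hold CHR motifs without an E2F motif, and Cdk1 and Mki67 hold both.
Top2a (chr11:99024140-99024439, minus strand): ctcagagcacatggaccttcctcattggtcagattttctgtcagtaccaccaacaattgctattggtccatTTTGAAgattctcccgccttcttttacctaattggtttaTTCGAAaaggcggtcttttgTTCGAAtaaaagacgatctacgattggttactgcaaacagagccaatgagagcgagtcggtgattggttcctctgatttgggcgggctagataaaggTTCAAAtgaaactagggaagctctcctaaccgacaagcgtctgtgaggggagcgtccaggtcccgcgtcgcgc
Ube2c (chr2:164769679-164769978, plus strand): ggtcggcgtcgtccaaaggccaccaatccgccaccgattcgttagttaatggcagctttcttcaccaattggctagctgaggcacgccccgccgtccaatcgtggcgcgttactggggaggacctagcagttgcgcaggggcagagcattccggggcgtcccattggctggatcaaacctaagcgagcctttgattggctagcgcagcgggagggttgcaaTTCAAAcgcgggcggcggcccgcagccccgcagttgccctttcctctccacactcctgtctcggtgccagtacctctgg
Cdk1 (chr10:69352863-69353162, minus strand): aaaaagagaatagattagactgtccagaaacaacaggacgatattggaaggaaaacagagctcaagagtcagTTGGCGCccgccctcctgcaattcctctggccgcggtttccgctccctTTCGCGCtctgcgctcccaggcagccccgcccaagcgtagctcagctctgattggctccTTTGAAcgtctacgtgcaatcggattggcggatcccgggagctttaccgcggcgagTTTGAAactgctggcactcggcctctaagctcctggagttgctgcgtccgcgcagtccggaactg
Mki67 (chr7:135716330-135716629, minus strand): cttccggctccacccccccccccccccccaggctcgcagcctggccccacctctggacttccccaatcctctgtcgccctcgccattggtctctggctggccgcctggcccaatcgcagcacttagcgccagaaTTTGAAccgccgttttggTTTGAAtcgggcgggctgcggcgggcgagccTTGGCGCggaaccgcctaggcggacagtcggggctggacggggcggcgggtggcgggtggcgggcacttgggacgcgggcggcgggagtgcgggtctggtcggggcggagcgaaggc

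An E2F motif was present in 14 of 18 replication promoters (77.8%) and in 4 of 20 mitosis promoters (20%), against 9.57% of all 32851 promoters in the table. The CHR motif was present in 16 of 20 mitosis promoters (80%) and in 2 of 18 replication promoters (11.1%), against 19.2% of all promoters. CHR and CCAAT stood together in 15 of 20 mitosis promoters (75%) and in 2 of 18 replication promoters, against 7.52% of all. CCAAT alone separated the lists little, with 13 of 18 and 17 of 20 promoters against 37.4% of all. A match of letters is a description of the window and shows no bound factor.

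The cells held 200152 to 1182889 counts each. The median number of genes per cell was 4335.5 on plate EA04 2490.5 to 2705 on plates EA01, EA02, EA03 and EA05, 2295 on EA06 and 3902.5 on EA07. Rn45s, ribosomal RNA, took 20.6% to 23.04% of the counts on EA01 to EA04 and 8.83% to 10.3% on EA05 to EA07. Most cells of plate EA04, of the code duct, had markers of other cell types: 43 of its 66 cells had the acinar enzyme gene Cpa1 at 1000 counts per 1000000 (CPM) or more, and 13 had the collagen gene Col3a1. Yet 63 of the 66 cells read at least 3 of 12 listed duct markers at 20 CPM or more. So did 399 of the 429 cells of the other plates. The plate held 9 cells with high Spp1, a duct marker, and 1 cell with all 8 endothelial markers. The plate was the only one of its code, so the code and the plate cannot be told apart.

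Both lists stood highest on the duct plate. Of the 19 replication genes, 18 had their highest level on EA04, and so did all 23 mitosis genes. The median gene of the replication list stood at 152.2 CPM on EA04 and at 6.95 to 30.5 CPM on the other plates, in counts summed over each plate. The median gene of the mitosis list stood at 91.99 CPM on EA04 and at 0 to 15.9 CPM elsewhere. On EA05, a plate of the endocrine code, 13 of the 23 mitosis genes had 0 counts over 85 cells, where 3 counts would be 0.0565 CPM.

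**Figure D1:**
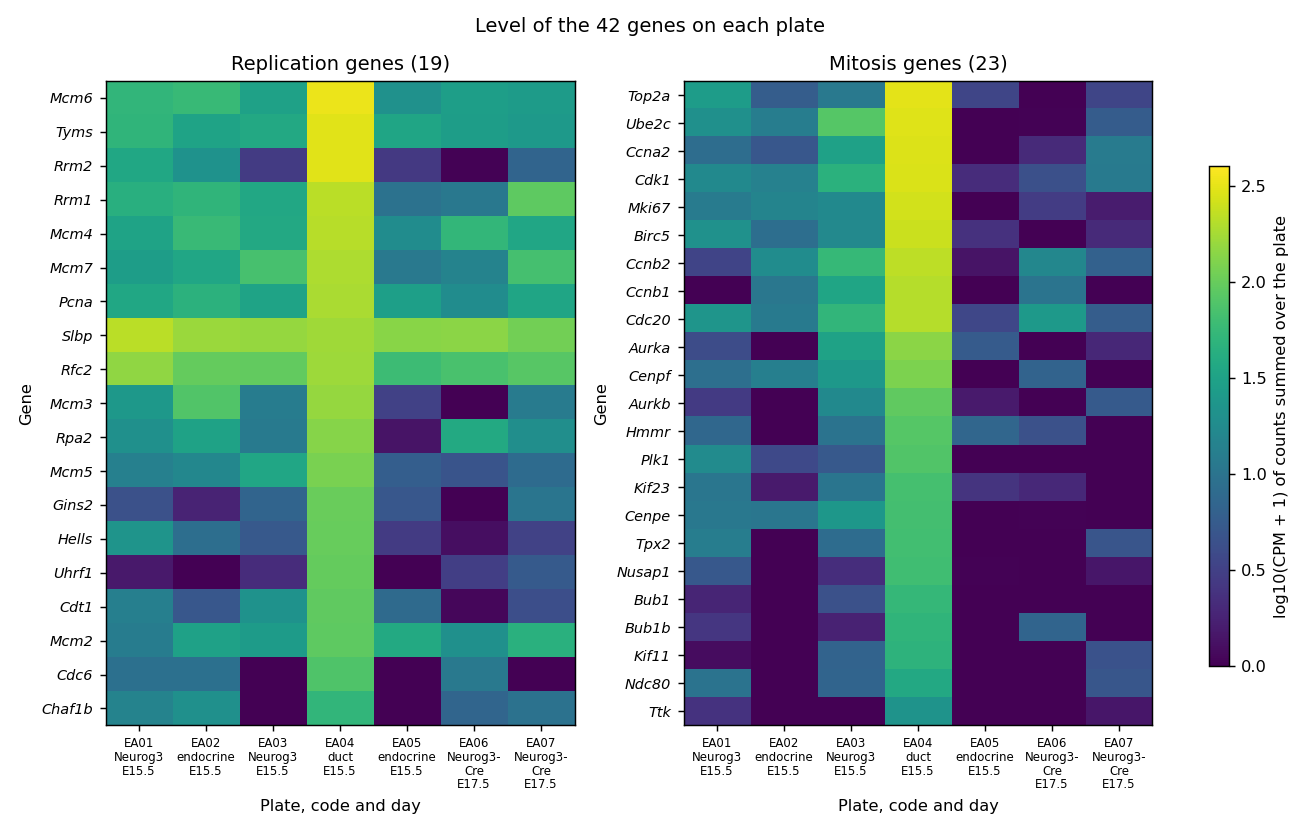
Level of each gene (rows, ordered by its level on EA04) on each of the 7 plates (columns, with plate code and day), as log10(CPM + 1) of counts summed over the cells of the plate. The EA04 column is the brightest in 41 of the 42 rows, while Slbp and Rfc2 stay bright on all plates.

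Mki67 (chr7:135689784-135716361, minus strand), the gene of the Ki-67 protein that coats mitotic chromosomes, ranged over the 66 cells of EA04 from 0 through a median of 86.2 to 1987 CPM. Over the 429 cells of the other plates its lowest and median values were 0 and its highest was 739 CPM. The summed level was 264 CPM on EA04 (exact 95% Poisson interval 258 to 270), and 11.05, 14.05 and 16.1 CPM on EA01, EA02 and EA03. No count fell on Mki67 on EA05, and EA06 and EA07 stood at 1.87 and 0.564 CPM. The cells overlapped, since 25 cells of EA04 were at 0 counts as well, but 38 of 66 cells there and 11 of 429 elsewhere reached 20 CPM, the level at which a gene was counted as read in a cell.

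Top2a (chr11:98992943-99024189, minus strand), the topoisomerase that untangles sister DNA, ranged in EA04 cells from 0 through 64.3 to 2841 CPM and elsewhere from 0 through 0 to 966 CPM. It was read in 36 of 66 cells and in 7 of 429. Plate EA06 had no Top2a count, and EA01, which held the highest such cell outside EA04, had the highest summed level of the 6 other plates (26.2 CPM against 310 on EA04).

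Pcna (chr2:132249162-132253314, minus strand), the sliding clamp of the replication fork, ranged in EA04 cells from 0 through 128.2 to 652 CPM and elsewhere from 0 through 0 to 720 CPM. It was read in 54 of 66 cells and in 88 of 429 cells, so outside EA04 it was read in more cells than Mki67 or Top2a was. By plate, Pcna stood at 34.1, 46.04 and 30.9 CPM on EA01 to EA03, at 186 on EA04, and at 28.2, 17.3 and 32.95 on EA05 to EA07.

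Mcm5 (chr8:75109569-75128439, plus strand), a subunit of the replicative helicase, ranged in EA04 cells from 0 through 73.7 to 497 CPM. Outside EA04 it was read in 16 of 429 cells, with a highest cell of 1318 CPM, above any cell of EA04. Its summed level was 120 CPM on EA04 and between 3.72 (EA06) and 33.7 CPM (EA03) elsewhere.

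Slbp and Rfc2 were the exceptions. Slbp, which binds the stem-loop of histone mRNA, was read in 185 of 429 cells outside EA04 and stood at 214, 159 and 154.6 CPM on EA01 to EA03, 167 on EA04 and 137.8, 140.2 and 110.1 CPM on EA05 to EA07. Rfc2, a subunit of the clamp loader, was read in 26.6% of the cells outside EA04 and stood at 59.6 CPM (EA05) to 147.5 CPM (EA01) outside EA04, against 165 CPM on it. The pair held 41.7% of all replication counts outside EA04.

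Compared per kilobase of exon on EA04, where genes of different length can be set side by side, Rrm2 was the highest replication gene at 108.6 CPM per kb, ahead of Pcna (77.4) and Mcm6 (72.1). Chaf1b was the lowest at 10.9 CPM per kb. Rrm2 is the small subunit of ribonucleotide reductase, and Chaf1b belongs to the chaperone that sets histones on new DNA. Among mitosis genes the order ran from Ccnb2 (144.01 CPM per kb), Ube2c (114.6) and Cdc20 (109.3) down to Kif11 (6.26), Ndc80 (5.56) and Ttk (4.17). Ube2c and Cdc20 both serve the ligase that ends mitosis, and Ttk and Ndc80 act at the kinetochore. Gene positions and exon lengths, as unions of exons, were from GENCODE M21 on GRCm38.

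The first comparison asked how the Neurog3 code plates differed from the duct plate at E15.5. Over 2-fold lower in the Neurog3 group (log2 ratio of CPM + 5 at or under -1, with 20 CPM in either group) were 17 of the 19 replication genes and all 23 mitosis genes, and none was over 2-fold higher. Of all 7964 genes measured at that level, 18.4% were as much lower, and the median log2 ratio was 0.13. The median log2 ratio was -2.45 for the replication genes and -2.79 for the mitosis genes. Only the duct plate put 10 of the replication genes and 19 of the mitosis genes over 20 CPM, so those 29 could not have been called higher. These ratios compare 1 plate of mostly acinar cells with 2 plates of sorted cells, and the summed acinar markers stood at 37821 CPM on EA04 and at 34.6 CPM in the Neurog3 group. The part of cell type in the difference was not tested.

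**Figure D2:**
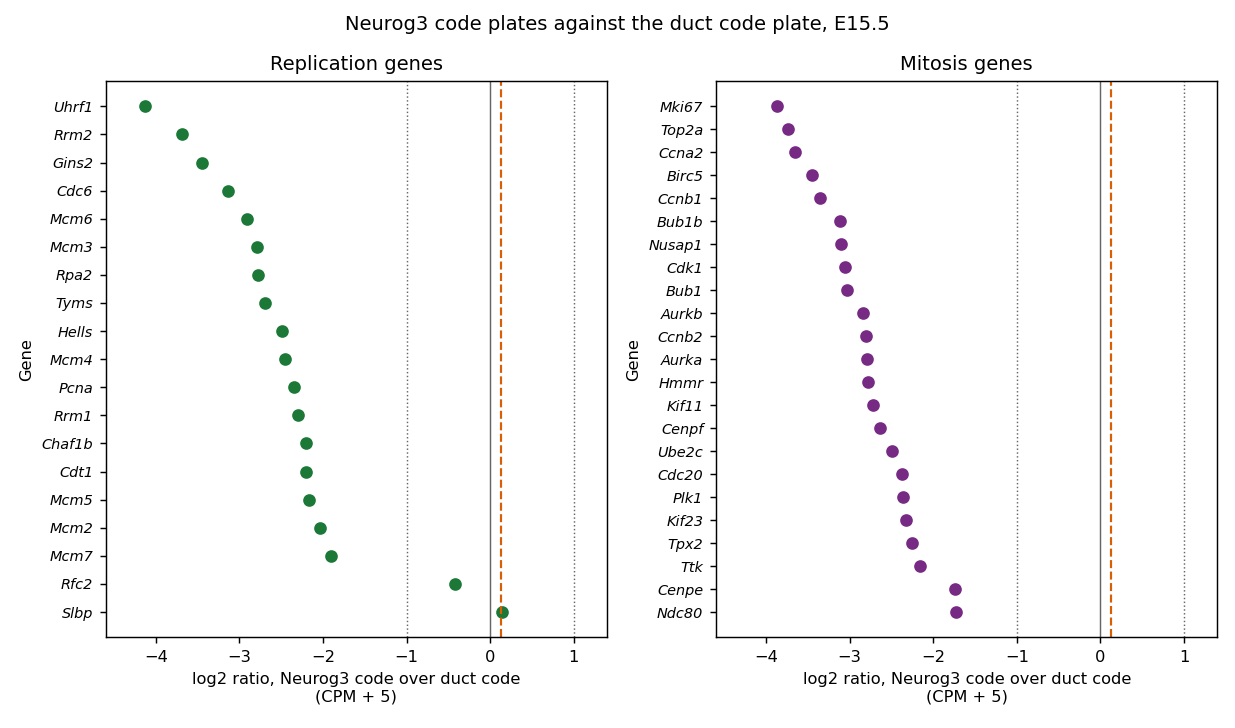
log2 ratio (x axis, CPM + 5) of each gene between the Neurog3 code plates EA01 and EA03 and the duct code plate EA04, for 19 replication genes (left) and 23 mitosis genes (right). Dotted lines mark 2-fold, the dashed line the median of all measured genes (0.13); only Slbp and Rfc2 lie between the dotted lines.

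The largest ratios among replication genes were those of Uhrf1, Rrm2, Gins2 and Cdc6. Uhrf1, which brings the maintenance methylase to newly copied DNA, stood at 0.789 CPM in the Neurog3 group against 96.2 on the duct plate (log2 ratio -4.13). Rrm2 followed at 18.7 against 301 CPM (-3.69), then Gins2, a subunit of the active helicase, at 4.60 against 100.2 CPM (-3.45). The licensing factor Cdc6 had 4.23 against 76.3 CPM (-3.14). At the other end, Slbp had 186 against 167 CPM (0.14, with the opposite sign without plate EA01), Rfc2 165 CPM on the duct plate (log2 ratio -0.42) and Mcm7 46.9 against 189 CPM (-1.90). Pcna and Mcm5 lay between these ends, at -2.34 and -2.17.

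Rrm2 and Mcm7 depended on the plate. Rrm2 was at 34.01 CPM on EA01 and 1.81 CPM on EA03, and its ratio was -5.49 with EA03 alone and -2.97 with EA01 alone. Mcm7 was at 26.98 and 68.98 CPM on the same plates.

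Among mitosis genes the largest ratios were those of Mki67 (13.5 against 264 CPM, -3.87), Top2a (18.6 against 310 CPM, -3.74), Ccna2 (18.2 against 287 CPM, -3.66) and Birc5 (18.01 against 247 CPM, -3.45). Ccna2 is cyclin A2, which acts from S phase into early mitosis, and Birc5 is survivin of the chromosomal passenger complex. The smallest were Ndc80 (7.40 against 36.1 CPM, -1.73), the kinetochore kinesin Cenpe (16.1 against 65.9 CPM, -1.75) and the checkpoint kinase Ttk (0.731 against 20.5 CPM, -2.15). Ttk and Ndc80 were also the lowest mitosis genes on the duct plate, where a pseudocount of 5 CPM takes more from the ratio. With a pseudocount of 20 CPM the Ttk ratio was -0.97, the 1 mitosis gene under 2-fold there.

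Fixed lists of further cell cycle genes followed. Of 46 other replication genes measured, 38 had levels in the Neurog3 group more than 2-fold below those of the duct plate and none above, led by Dtl (0.545 against 76.8 CPM), Exo1 (0 against 64.1), Pole2 (0.158 against 59.5) and Brca1 (0.158 against 52.5). Of 49 other mitosis genes measured, 46 were over 2-fold lower and none higher, led by Ckap2 (0 against 55.2 CPM), Tacc3 (5.03 against 99.2), Ncapg (0.846 against 49.6) and Kif4 (1.32 against 53.6). Among 9 measured genes of cell cycle exit and the cyclins D, 3 stood more than 2-fold above the duct plate in the Neurog3 group, among them the inhibitor gene Cdkn1a at 711 against 63.5 CPM, and 4 were lower, among them Ccnd1 at 8.69 against 102.9 CPM, where 20.7% of all measured genes were as much higher and 18.4% as much lower.

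Cells were then counted, since a summed level can come from few or from many cells. A cell counted as mitosis-read with at least 3 of the 23 mitosis genes at 20 CPM, and as replication-read with at least 5 of the 19 replication genes. On the duct plate 47 of 66 cells were mitosis-read (71.2%, exact 95% Clopper-Pearson interval 58.7% to 81.7%), against 4 cells of the Neurog3 code (2.80%, 0.767% to 7.01%). The endocrine code had 2 (1.27%, 0.155% to 4.53%) and E17.5 had 2 (1.55%, 0.188% to 5.49%). EA05 had 0 of 85, with an exact upper limit of 4.25%. Intervals cover counting error only. With every cell thinned to 200000 counts, the 4 groups had 48, 4, 2 and 2 mitosis-read cells in the same order, so depth moved the count by 1 cell.

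Replication-read cells were 56 of 66 on the duct plate (84.8%, 73.9% to 92.5%), 14 of the Neurog3 code (9.79%, 5.46% to 15.9%), 10 of the endocrine code (6.37%, 3.10% to 11.4%) and 9 at E17.5 (6.98%, 3.24% to 12.8%). After thinning they were 56, 15, 9 and 9. Outside EA04, 33 cells were replication-read and 5 of these were also mitosis-read, while 19 had no mitosis gene read at all. The cells outside EA04 with no mitosis gene read were 359 of 429, and 55 more had only 1.

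**Figure D3:**
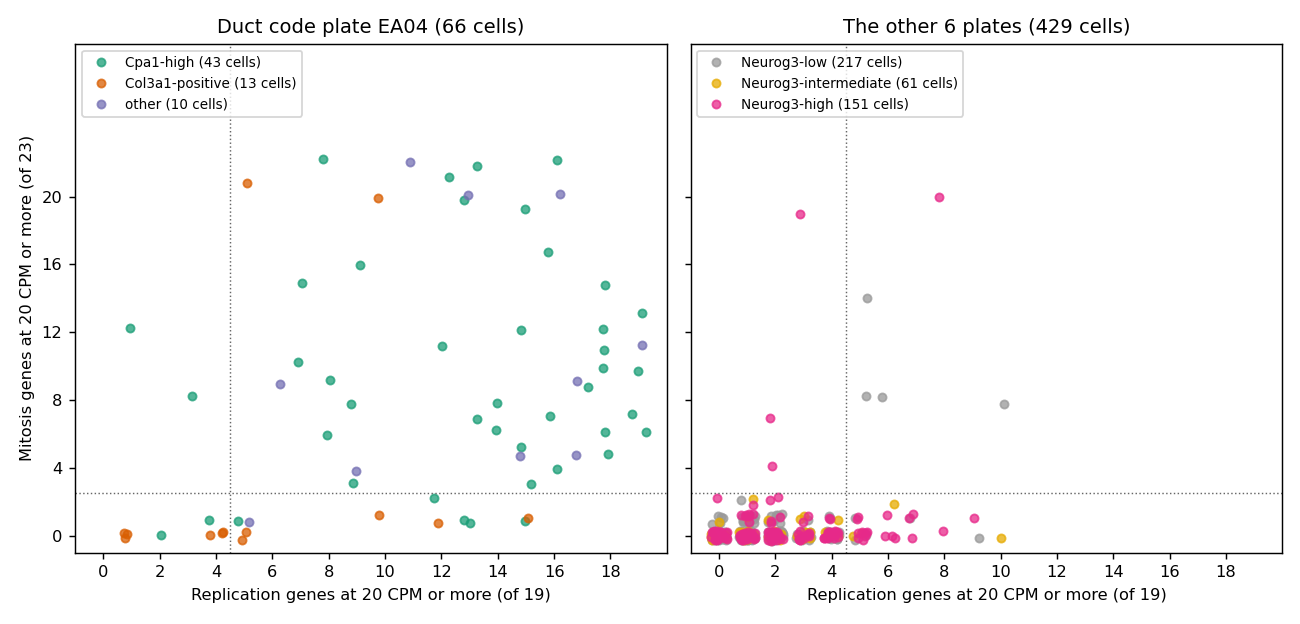
Number of replication genes (x axis, of 19) and mitosis genes (y axis, of 23) at 20 CPM or more in each cell, on EA04 (left, 66 cells, coloured by class) and on the other 6 plates (right, 429 cells, coloured by Neurog3 level), with points moved by less than 0.3 to keep them apart. Dotted lines mark 5 replication and 3 mitosis genes; 45 cells of EA04 lie past both, and most cells on the right lie at 0 mitosis genes.

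Few cells held most of the mitosis counts outside EA04. The 2 cells highest for the mitosis genes held 46.5% of them, and the 2 highest for the replication genes held 2.97% of the replication counts. The 8 mitosis-read cells, which were chosen for reading these genes, held 74.5% of the mitosis counts, and the summed mitosis level was 136.8 CPM with these cells and 35.5 CPM without them. The same 8 cells held 5.32% of the replication counts, which stood at 567 CPM with them and 547 CPM without. In the Neurog3 group the 4 mitosis-read cells held 86.6% of the mitosis counts (335 CPM, and 45.96 CPM without them). On the duct plate the 2 cells highest for the mitosis genes held 25.8% of the mitosis counts, and the 2 highest for the replication genes held 9.56% of the replication counts. Without the cells EA01 F3 and EA03 E6 of the Neurog3 group, 40 members were still over 2-fold lower in that group than on the duct plate, with a mitosis median of -3.60 and Top2a at -4.66 on the log2 scale.

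The endocrine code was compared with the Neurog3 code at E15.5. Of 11 measured replication genes 2 were over 2-fold lower in the endocrine group, Mcm7 (19.2 against 46.9 CPM, log2 ratio -1.10) and Mcm5 (8.81 against 22.6 CPM, -1.001), and the median was -0.34. Of all genes measured, 4.47% were as much lower and 7.23% as much higher. Mcm2 (33.95 against 18.1 CPM, 0.76), Mcm3 (30.8 against 17.7 CPM, 0.66) and Pcna (34.99 against 32.6 CPM, 0.09) went the other way without reaching 2-fold. Rfc2 (73.8 CPM in the endocrine group, -0.69), Tyms (32.3 against 43.3, -0.37), Slbp (146.01 against 186, -0.34), Mcm6 (33.5 against 40.5, -0.24) and Mcm4 (32.3 against 33.8, -0.06) also lay within 2-fold.

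The 4 measured mitosis genes were all over 2-fold lower: Ube2c (4.48 against 48.9 CPM, -2.51), Cdc20 (5.65 against 35.3, -1.92), Cdk1 (5.62 against 29.8, -1.71) and Ccnb2 (6.89 against 27.1, -1.43). All 4 reached 20 CPM only in the Neurog3 group, so they could not have been called higher, and over all 23 genes, with no minimum level, the median was -1.31. From the fixed lists, 12 other mitosis genes (median -0.49) and 18 other replication genes (median -0.36) were measured. None of these was over 2-fold apart. Mki67 (5.37 against 13.5 CPM) and Top2a (3.35 against 18.6) were under 20 CPM in both groups. These ratios rest on few cells. Without the cells EA01 F3 and EA03 E6, 3 genes in place of 6 were over 2-fold lower, and 1 mitosis gene was still measured, the ratio of Cdk1 having changed sign. Without plate EA03 the Ccnb2 ratio turned to 0.68. The plates also differed within a code: the summed replication level was 740 CPM on EA02 and 374 CPM on EA05, which differ in their share of Rn45s, and with EA05 left out 3 genes were over 2-fold apart, 1 higher and 2 lower.

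The E17.5 group was compared with the Neurog3 code group of E15.5; day, genotype and plate change together here and cannot be told apart. Of 11 measured replication genes only Mcm5 was over 2-fold lower (5.97 against 22.6 CPM, -1.33), and the median was -0.21. Of all genes measured, 3.34% were as much lower and 17.3% higher, with a median of 0.26. With edgeR's TMM factors the median of all genes was -0.04, and these factors lower the ratios here, by less for genes at low levels. Mcm2 (35.1 against 18.1 CPM, 0.80), Rrm1 (61.7 against 38.9, 0.60), Rpa2 (24.8 against 15.3, 0.56), Mcm4 (40.1 against 33.8, 0.22) and Mcm7 (49.02 against 46.9, 0.06) were higher within 2-fold, and Mcm4 and Mcm7 changed sign with TMM factors. Tyms (25.4 against 43.3, -0.67), Rfc2 (78.6 CPM at E17.5, -0.60), Slbp (120.6 against 186, -0.60), Mcm6 (26.6 against 40.5, -0.52) and Pcna (27.5 against 32.6, -0.21) were lower within 2-fold. Rrm1 is the large subunit of ribonucleotide reductase, and its partner Rrm2 stood at 3.84 CPM at E17.5, too low in both groups to be measured.

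The 4 measured mitosis genes were all lower: Ube2c (3.07 against 48.9 CPM, -2.74), Cdk1 (8.11 against 29.8, -1.41), Cdc20 (11.3 against 35.3, -1.30) and Ccnb2 (8.80 against 27.1, -1.22). They too reached 20 CPM only in the Neurog3 group and could not have been called higher, and over all 23 genes, with no minimum level, the median was -1.30. From the fixed lists, 13 other mitosis genes were measured, 2 over 2-fold higher and 3 lower (median -0.67). The other replication genes measured were 21, with 1 higher and 2 lower (median 0.13). Mki67 (1.02 against 13.5 CPM) and Top2a (1.63 against 18.6) were too low in both groups to be measured. The 4 measured members were the same as in the endocrine group, since both comparisons share the Neurog3 group and its few mitosis-read cells. Without EA01 F3 and EA03 E6, 2 genes in place of 5 were over 2-fold lower, and Ccnb2 turned to 0.90 without plate EA03.

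The duct plate was then divided by markers. Cpa1-high cells (43) had Cpa1 at 1000 CPM or more, Col3a1-positive cells (13) had less Cpa1 and Col3a1 at 20 CPM or more, and 10 other cells remained. The 10 were not of 1 type, since they included EA04 E7, the cell with all 8 endothelial markers. EA04 E7 read all 19 replication genes, with the highest Mcm6 (1282 CPM) and Pcna (648 CPM) of the 10. The thresholds fell in gaps: the lowest Cpa1-high cell had 1682 CPM of Cpa1 and the next cell 347, and the lowest Col3a1-positive cell had 1149 CPM of Col3a1 and the next 11.7. The Col3a1-positive cells carried mesenchyme markers at 17048 CPM in sum, Cpa1-high cells at 37.8 CPM. Median genes per cell were 4476, 3735 and 4387.5.

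Mitosis-read cells were 36 of 43 Cpa1-high, 2 of 13 Col3a1-positive and 9 of 10 other cells. Replication-read cells were 39 of 43, 7 of 13 and 10 of 10. Of the 9 cells of the plate with no mitosis gene read, 8 were Col3a1-positive and 1 was Cpa1-high. The mitosis genes in sum stood at 2808 CPM in the Cpa1-high cells, with a median cell of 1596 CPM, and at 4052 CPM in the other cells, with a median cell of 2752 CPM and 44.2% of the counts in 2 of the 10 cells.

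In the Col3a1-positive cells they summed to 4233 CPM, but the median cell was at 0. There 2 cells, A10 with 20 and E11 with 21 of the 23 mitosis genes, held 99.5% of the mitosis counts, at 13956 and 22847 CPM, and the level without them was 27.3 CPM. E11 had the highest mitosis level of all cells of the plate, with Ube2c at 3298, Ccnb2 at 2391 and Cdk1 at 2164 CPM. The class thus split into 2 cells with nearly the whole mitosis list and 11 cells with almost none of it.

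Cpa1-high cells differed little from the other cells of the plate. Over 2-fold lower in Cpa1-high cells were 1 of 19 replication genes, Mcm2 (79.9 against 175 CPM, -1.09), and 5 of 23 mitosis genes, and none was higher. Of all genes measured, 27.9% were as much lower and 15% as much higher, with a median of -0.33, so the members' share was below the background. With TMM factors the median of all genes was 0.04, and 2 members were over 2-fold lower and 1 higher. The 5 were Aurka (71.01 against 332 CPM, -2.15), Bub1 (47.1 against 131.7, -1.39), Ndc80 (30.1 against 73.1, -1.16), Nusap1 (29.1 against 68.7, -1.11) and Top2a (279 against 567, -1.01). Aurka is the kinase of the spindle poles, and it was read in 9 of 43 and 5 of 10 cells. Nusap1, which binds spindle microtubules, was 0.14 where Col3a1-positive began at 10 CPM.

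After Mcm2, the replication genes farthest apart were Mcm4 (190 against 383 CPM, -0.995), Rfc2 (159 against 309, -0.94) and Gins2 (83.4 against 156.4, -0.87), all within 2-fold. Nearest were Rpa2 (156.1 against 147.3 CPM, 0.08), Chaf1b (60.9 against 66.6, -0.12, the opposite sign with TMM factors) and Tyms (332 against 280, 0.24). Higher within 2-fold were also Mcm5 (144.9 against 109.7 CPM, 0.39), Rrm2 (378 against 286, 0.40), Mcm7 (211 against 144.97, 0.52) and Uhrf1 (121.8 against 76.5, 0.64). Pcna was at 194 against 295 CPM (-0.59). Among mitosis genes Mki67 (299 against 298 CPM, 0.0031), Ccnb1 (160 against 155.1, 0.05) and Ccna2 (270 against 296, -0.13, the opposite sign with TMM factors) were nearest, though Mki67 was at 0.64 without EA04 G12, a cell of the other class. Aurkb (101.99 against 57.1, 0.79), Kif11 (52.1 against 32.97, 0.59) and Ccnb2 (177 against 154.7, 0.19) were higher within 2-fold.

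Col3a1-positive cells had lower replication genes than the 10 other cells. Of the 19 replication genes 15 were over 2-fold lower (median -1.55), against 29.7% of all genes measured. Cdc6 had 0 counts in the Col3a1-positive cells and 128.3 CPM in the other cells, which is at least 252-fold lower when the class is set to 3 counts. The level of the other cells rested on 1 cell, EA04 G12, and without it was 62.1 CPM, a limit of 121.95-fold. Chaf1b had 6.79 against 66.6 CPM (-2.60), Mcm6 115.3 against 530 CPM (-2.15) and Rfc2 68.1 against 309 CPM (-2.10). Pcna (72.3 against 295, -1.96) and Mcm5 (47.7 against 109.7, -1.12) were also lower. Within 2-fold were Mcm7 (154.5 against 144.97 CPM, 0.09), Tyms (246 against 280, -0.19), Cdt1 (89.1 against 118.98, -0.40) and Gins2 (107.6 against 156.4, -0.52).

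Mitosis genes in the same comparison went both ways, 4 higher and 6 lower, against 25.4% and 29.7% of all genes. Higher were Ube2c (650 against 239 CPM, 1.42), Ccnb2 (411 against 154.7, 1.38), Ccnb1 (388 against 155.1, 1.30) and Nusap1 (162 against 68.7, 1.18). Lower were Bub1 (7.64 against 131.7 CPM, -3.43), Plk1 (28.2 against 150.7, -2.23), Tpx2 (34.1 against 108.4, -1.54), Top2a (202 against 567, -1.47), Ndc80 (25.5 against 73.1, -1.36) and Mki67 (126.6 against 298, -1.20). Without EA04 G12 the Mki67 ratio was -0.56, within 2-fold. Plk1 turned to 0.62 where Col3a1-positive began at 10 CPM. A10 and E11 held nearly all mitosis counts of the class, so leaving them out fixes the mitosis result in advance. Without them all 23 mitosis genes were over 2-fold lower in the Col3a1-positive cells, with a median of -4.77, and none was higher. Among replication genes 14 of the 19 were over 2-fold lower. The share of all genes called without these cells was not counted.

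Against the Cpa1-high cells, 10 of 19 replication genes were over 2-fold lower in the Col3a1-positive cells (median -1.08), and 22.5% of all genes were as much lower. Cdc6 was at least 171-fold lower (0 against 87.2 CPM), and Chaf1b (6.79 against 60.9 CPM, -2.48), Rrm2 (69.4 against 378, -2.36), Uhrf1 (31.4 against 121.8, -1.80), Mcm5 (47.7 against 144.9, -1.51) and Pcna (72.3 against 194, -1.36) were among the 10. Cdt1 (89.1 against 85.6 CPM, 0.06, the opposite sign with TMM factors) and Gins2 (107.6 against 83.4, 0.35) were higher within 2-fold, and Tyms (246 against 332, -0.43) and Mcm7 (154.5 against 211, -0.43) lower within it.

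Of the mitosis genes 6 were higher and 3 lower there, against 31.4% and 22.5% of all genes. Nusap1 (162 against 29.1 CPM, 2.30), Ube2c (650 against 201, 1.67), Aurka (205 against 71.01, 1.47), Ccnb1 (388 against 160, 1.25), Ccnb2 (411 against 177, 1.19) and Ttk (34.8 against 14.03, 1.06) were higher. Bub1 (7.64 against 47.1 CPM, -2.04), Plk1 (28.2 against 74.1, -1.25) and Mki67 (126.6 against 299, -1.21) were lower, and Top2a (202 against 279, -0.46) lay within 2-fold. Plk1 was 0.36 where Col3a1-positive began at 10 CPM. Without A10 and E11, 34 of the 42 genes were over 2-fold lower and none higher, in place of 6 higher and 13 lower. The mitosis part of this follows from the choice of these cells, and the share of all genes called without them was not counted.

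Across the 66 cells of EA04 the members of a list varied together, and most members followed the other list less closely. Correlations here are over cells of 1 plate that share a library preparation and differ in depth and cell class, and they are given as a description. With the mean of the other mitosis genes, in log2(CPM + 5), Pearson's r ranged from 0.52 (Ccnb2) to 0.82 (Aurka), with a median of 0.75. With the mean of the other replication genes, r ranged from 0.37 (Gins2) to 0.77 (Pcna), with a median of 0.57. Across lists, r of the replication genes with the mitosis mean ranged from -0.08 (Cdc6) to 0.38 (Rrm1), with a median of 0.12. That of the mitosis genes with the replication mean ranged from -0.13 (Cdc20) to 0.51 (Cdk1), with a median of 0.15. Cdk1 and Top2a (0.47) were thus above Gins2 and Tyms (0.43) in r with the replication mean. The means of the lists had r of 0.19 over the 66 cells and 0.07 over the 43 Cpa1-high cells, and each had r of 0.25 with the log2 total count.

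By count of genes read, 45 cells of EA04 were both mitosis-read and replication-read, 11 were only replication-read, 2 only mitosis-read and 8 neither. The 15 cells with 14 or more mitosis genes read had a median of 13 replication genes (5 to 18), and the 42 cells with 1 to 13 mitosis genes had a median of 14.5 (1 to 19). The 9 cells with none had a median of 4 replication genes (1 to 5). Median genes per cell in these sets were 5235, 4335.5 and 3246, so the number of genes detected moved with the mitosis count, and its part was not tested.

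Single members differed in how many EA04 cells read them. Among replication genes the number ran from 17 cells (Chaf1b) to 56 cells (Tyms, thymidylate synthase), and among mitosis genes from 10 cells (Nusap1 and Ttk) to 42 cells (Birc5). Cdk1 was read in 41, Mki67 and Ccna2 in 38, and Aurkb, the kinase of the passenger complex, in 15 cells.

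Outside the lists, genes among the most like the mean of the mitosis genes over the 66 cells were Fam64a (r 0.74) and Kpna2 (0.70), and those most like the mean of the replication genes were Slfn9 (0.75), Chek1 (0.68) and Tipin (0.66). Of the other listed cell cycle genes, Aspm (0.80), Ckap2l (0.79) and Cks2 (0.76) led for mitosis, and Gmnn (0.73), Prim1 (0.73) and Fen1 (0.69) for replication.

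The 429 cells outside EA04 were next divided by Neurog3, into high (1000 CPM or more), intermediate (20 to under 1000 CPM, 61 cells) and low (under 20 CPM, 217 cells), so that the remaining cells were high. Between 500 and 2000 CPM lay 41 cells, so the upper threshold runs through a range of levels. Mitosis-read cells were 4 high (2.65%), 0 of 61 intermediate and 4 of 217 low cells, and 0 of 61 has an exact upper limit of 5.87%. Replication-read cells were 20 high (13.2%, 8.28% to 19.7%), 4 of 61 (6.56%, 1.82% to 15.9%) and 9 of 217 (4.15%, 1.91% to 7.73%). The median cell had 628, 485 and 268 CPM of replication genes in sum in that order, and all classes had a median of 0 CPM of mitosis genes.

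Most of the 19 listed replication genes were higher in Neurog3-high than in Neurog3-low cells. Of 13 measured, 6 were over 2-fold higher and none lower, with a median of 0.98, against 8.96% of all genes as much higher and 12.3% as much lower, and a median of all genes of -0.04. The 6 were Mcm3 (46.4 against 4.39 CPM, 2.45), Rrm1 (77.2 against 19.2, 1.77), Rrm2 (23.6 against 3.63, 1.73), Mcm6 (56.8 against 16.05, 1.55), Mcm5 (25.2 against 6.29, 1.42) and Mcm7 (59.8 against 24.7, 1.13). All of these but Mcm7 reached 20 CPM only in the Neurog3-high cells and could not have been called lower. Over all 19 genes, with no minimum level, the median was 0.86, and 17 of the 19 ratios were above 0. The fixed list of other replication genes did not share this difference. There 19 genes were measured, 1 over 2-fold higher and 1 lower, with a median of 0.08. Pcna (26.9 against 34.1 CPM, -0.29) went the other way within 2-fold, and Rfc2 (90.4 against 83.8, 0.10) and Slbp (169 against 130.2, 0.37) were the nearest. The 6 were thus 4 subunits of the helicase and both subunits of ribonucleotide reductase, while the helicase subunits Mcm2 (39.7 against 27.7 CPM, 0.45) and Mcm4 (50.3 against 27.4, 0.77) lay within 2-fold. Rrm2 was read in only 5 Neurog3-high cells, at up to 1840 CPM in EA01 F3, so its ratio rests on few cells.

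Of the 4 mitosis genes measured, 3 were over 2-fold higher, Ube2c (38.1 against 7.35 CPM, 1.80), Ccnb2 (28.3 against 5.41, 1.68) and Cdc20 (28.9 against 6.17, 1.60), and Cdk1 (24.1 against 10.4, 0.92) was not. Mki67 (14.2 against 1.49 CPM) and Top2a (14.8 against 4.08) were under 20 CPM in both classes. All 4 reached 20 CPM only in the high cells, so they could not have been called lower, and over all 23 genes the median was 0.98 with no minimum level. From the fixed list, 13 other mitosis genes were measured, 2 over 2-fold higher and 1 lower, with a median of 0.47. Of the mitosis counts of the high cells 83.96% came from 4 cells. Without EA01 F3 and EA03 E6, 1 mitosis gene and 5 replication genes were over 2-fold higher, and the ratios of Ube2c and Cdk1 changed sign.

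Within single plates the order held on some and not on others. The summed replication level in high and low cells was 917 and 545 CPM on EA01, 995 and 435 on EA02, and 850 and 216 on EA03. On EA07 it was 674 and 540 CPM, whereas the high cells were the lower ones on EA05 (266 and 384 CPM, with 5 high cells) and EA06 (408 and 469 CPM). The mitosis level was higher in the high cells on EA01 (343 and 120.98 CPM), EA02 (150.7 and 108.03) and EA03 (792 and 47.9). It was lower in them on EA05 (0 and 22.4 CPM), EA06 (0 and 128.6) and EA07 (37.3 and 99.8). These mitosis levels rest on few cells. Mitosis-read high cells numbered 1, 1 and 2 on EA01, EA02 and EA03, and EA01, EA02, EA06 and EA07 held 1 mitosis-read low cell each. Leaving out EA03 reduced the members over 2-fold from 9 to 4.

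**Figure D4:**
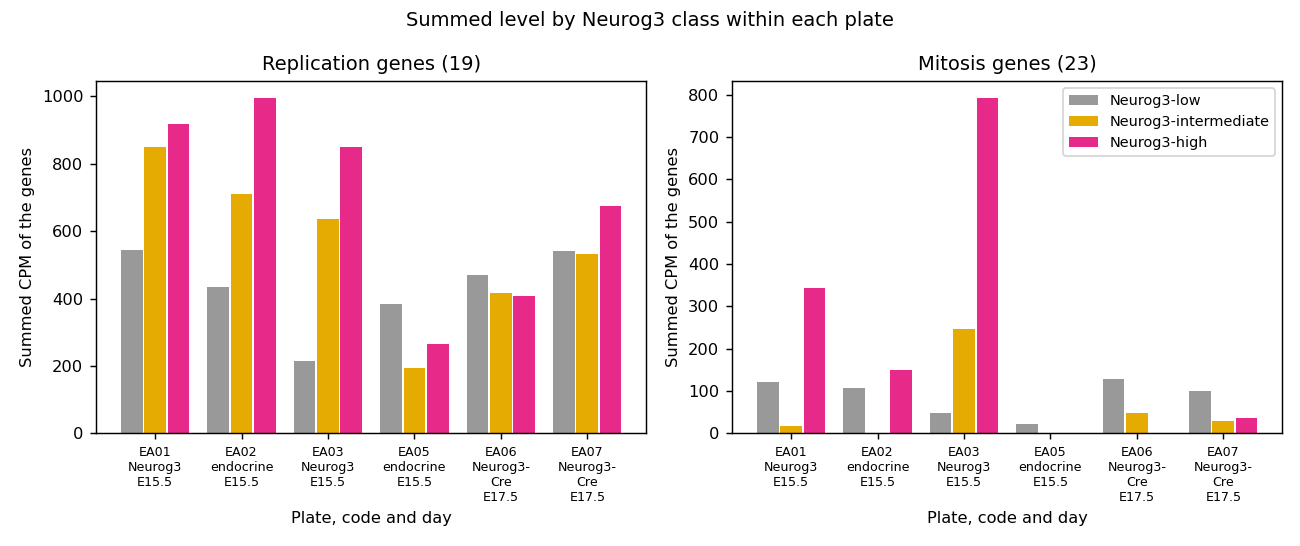
Summed CPM (y axis, from 0) of the 19 replication genes (left) and the 23 mitosis genes (right) in Neurog3-low, intermediate and high cells of each plate outside EA04 (x axis). Replication bars of high cells stand above those of low cells on EA01, EA02, EA03 and EA07 and below them on EA05 and EA06.

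Few members were over 2-fold apart between intermediate and low cells, though the median replication level of intermediate cells lay between those of high and low cells. Of 10 replication genes measured 1 was over 2-fold higher, Rrm1 (44.2 against 19.2 CPM, 1.03), and of 1 mitosis gene measured 1, Cdc20 (20.6 against 6.17 CPM, 1.195), against 7.71% of all genes as much higher and 5.28% as much lower. Both reached 20 CPM only in the intermediate cells and could not have been called lower. Without plate EA07 the Rrm1 ratio was -0.77. Mcm6 (36.1 against 16.05 CPM, 0.97), Rpa2 (22.98 against 10.7, 0.84) and Mcm2 (17.4 against 27.7, -0.54) came next, and Pcna (32.8 against 34.1, -0.05), Tyms (31.7 against 27.8, 0.17) and Mcm4 (31.8 against 27.4, 0.19) were the nearest. Over all 23 mitosis genes with no minimum level the median was -0.46, the opposite sign to Cdc20. Mki67 was at 3.22 against 1.49 CPM, Top2a at 0 against 4.08 CPM, and Mcm5 at 0.436 against 6.29 CPM, all too low to be measured.

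The 8 mitosis-read cells outside EA04 were of several kinds. By the rule that an endocrine cell reads at least 5 of 13 endocrine markers, 4 of the 8 were endocrine, out of 351 such cells among the 429, and these 4 fell into 2 pairs. EA01 F3 and EA03 E6 were Neurog3-high cells at E15.5 with 7 endocrine markers each and hormone genes at or near 0, while EA02 A5 and EA06 G5 had no Neurog3 and read 4 hormone genes each. All 4 also read duct markers, 7 of 12 in EA01 F3, 8 in EA03 E6, 5 in EA02 A5 and 10 in EA06 G5. Reading duct markers was common outside EA04, where 399 of the 429 cells read at least 3 of them.

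EA01 F3 (466884 counts, 3277 genes) had Neurog3 at 4633 CPM and read 20 of 23 mitosis genes and 8 of 19 replication genes. Plk1 was at 1103, Top2a at 966, Birc5 at 947 and Mki67 at 739 CPM in it, and Ccnb1, Aurkb and Kif11 were at 0. Its replication genes were led by Rrm2 at 1840 CPM, the highest Rrm2 value outside EA04. The endocrine factors Rfx6 (867 CPM), Neurod1 (563), Pax4 (553) and Insm1 (289) were read, and Cdkn1a was at 0.

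EA03 E6 (589315 counts, 3015 genes) had Neurog3 at 6915 CPM and read 19 mitosis genes and 3 replication genes. Ube2c was at 4400, Cdk1 at 2421, Cdc20 at 2097 and Ccnb1 at 1795 CPM, each the highest of any cell outside EA04. Its 3 replication genes were Slbp (1288 CPM), Tyms (343) and Rrm1 (100). Neurod1 stood at 2708, Pax4 at 2518, Rfx6 at 791 and Chga at 538 CPM, and Cdkn1a was at 0. These 2 cells were the only ones outside EA04 with more than 14 mitosis genes read.

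EA02 A5 (587982 counts) read 8 mitosis genes, 10 endocrine markers and 14 of 16 acinar markers. Cpa1 stood at 9454 CPM beside the hormone genes Ins2 (5090 CPM) and Iapp (2801 CPM), and the cell had the most genes of its plate, 4870. EA06 G5 (900242 counts) read 8 mitosis genes and 7 endocrine markers, with Spp1 at 12981 CPM beside Ppy (15434 CPM), Pyy (21370 CPM) and Gcg (2774 CPM). It had the most counts and the most genes of its plate. Doublets were not called, and without these 2 cells the endocrine cells with mitosis genes read were 2 in place of 4.

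Among the other 4 cells, EA02 F7 and EA03 B1 were Neurog3-high (4322 and 3180 CPM) with 2 endocrine markers each and Spp1 at 4109 and 4612 CPM. EA02 F7 read 4 mitosis genes and EA03 B1 read 7, with Ccnb2 at 3383 CPM in EA03 B1, above any cell of EA04. EA07 F12 had Spp1 at 11173 CPM and none of the 13 endocrine markers, and read 8 mitosis and 10 replication genes. It also read 2 hormone genes, Gcg at 232 CPM and Ins2 at 151.5 CPM. EA01 H1, with 285478 counts, had neither Neurog3 nor an endocrine marker, and read 14 mitosis genes, among them Ube2c at 1079 CPM. Of the marker lists it read 1 duct, 1 mesenchyme, 1 immune and 1 of 8 endothelial markers. Pecam1 was at 186, Epcam at 129.6 and Vim at 101.6 CPM, Kdr was at 0, and the type of this cell was not tested. Over the 8 mitosis-read cells Cdkn1a varied, with 0 CPM in EA01 F3, EA03 E6 and EA01 H1. It was at 3.37 CPM in EA07 F12, 62.9 in EA02 A5, 115.5 in EA06 G5, 435 in EA03 B1 and 962 in EA02 F7. All 4 mitosis-read cells of the Neurog3-high class also read Spp1, at 49.3 to 4612 CPM. In that class 4 of 40 cells with Spp1 read and none of the others were mitosis-read, a division chosen after the values were seen. Plates EA01 to EA03, which held all 4, gave 38 of the 40 cells and 70 of the others.

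**Figure D5:**
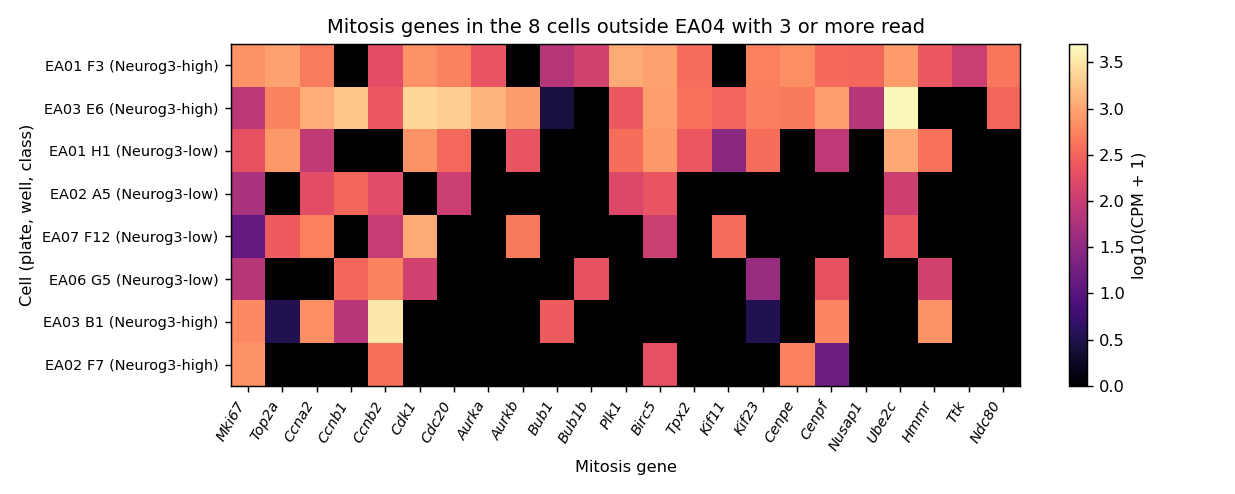
log10(CPM + 1) of the 23 mitosis genes (columns) in the 8 mitosis-read cells outside EA04 (rows, with plate, well and Neurog3 class), ordered by genes read. EA01 F3 and EA03 E6 read 20 and 19 of the 23 genes, and the other 6 cells read 4 to 14.

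The 33 replication-read cells outside EA04 numbered 20 Neurog3-high, 4 intermediate and 9 low cells, and 8, 10, 6, 0, 2 and 7 on EA01, EA02, EA03, EA05, EA06 and EA07. Endocrine markers were at 5 or more in 15 of the 33, against 351 of all 429 cells. The most replication genes read in 1 cell outside EA04 was 10, where 41 of 66 cells of EA04 read 10 or more.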

How the data were processed

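RNA of 495 single cells of mouse embryonic pancreas was read with Smart-seq2, 1 cell per well on 7 plates. The deposited table holds raw counts per gene and cell. FastQC, STAR and HTSeq with mouse build mm10 are named per the submitters' processing notes, and their versions and settings, the strand setting and the sort gates are left unstated (not given in the sources used here). Reads carry no molecular identifiers, so counts are not molecules, and genes with near-identical copies or overlapping genes can share reads.

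Groups follow the plate code and day in the labels. The members and all gene lists were chosen with earlier results of these data known. Counts were summed over the cells of a set and divided by the summed total, as counts per 1000000 (CPM). Ratios are log2 of CPM + 5 between 2 sets, for genes at 20 CPM or more in either, with 2-fold as the call. Named genes are those of both lists with the largest and smallest ratios, those past 2-fold, those going against their list, and always Mki67, Top2a, Pcna and Mcm5. Shares have exact Clopper-Pearson intervals and levels exact Poisson intervals, at 95%, and a count of 0 is limited by 3 counts, which is 0.0315 to 0.103 CPM over a group. Each group is 1 sample, so the ratios have no replicate check. Doublets were not called, and no 2 cells held identical values. Cells were also thinned to 200000 counts. Alternatives took scaling factors from edgeR 4.0.16 (TMM) and DESeq2 1.42.0 in R 4.3.3, other pseudocounts and minimum levels, other thresholds, totals without Rn45s, and sets without a plate or named cells. The scripts were tested on simulated data. Python 3.11.15 with numpy 2.4.6, pandas 2.3.3, scipy 1.17.1 and matplotlib 3.10.9 was used. Positions are from GENCODE M21 (GRCm38) and promoters from RefSeq (GRCm38.p6). Of the genes outside the lists with the most similar pattern, 1 is not reported here.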

Additional observations from a re-analysis of the deposited data

How the results depend on the processing

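The Neurog3 code against the duct code gave 39 to 40 members over 2-fold under every alternative run. For the endocrine code against the Neurog3 code (6 members) the count was 12 with totals without Rn45s, 2 with a pseudocount of 20 CPM, 18 with no minimum level, 3 without the cells EA01 F3 and EA03 E6, and 3 to 13 with 1 plate left out. For E17.5 against the Neurog3 code (5 members) it was 8 with TMM factors, 8 with DESeq2 factors, 13 without Rn45s, 1 with a pseudocount of 20 CPM, 18 with no minimum level, 2 without EA01 F3 and EA03 E6, and 5 to 11 with 1 plate left out. For Cpa1-high against other cells (6 members) it was 3 with TMM factors, 3 with DESeq2 factors and 2 with a pseudocount of 20 CPM. For Col3a1-positive against Cpa1-high cells (19 members) it was 34 without EA04 A10 and EA04 E11. For Neurog3-high against low cells (9 members) it was 4 with a pseudocount of 20 CPM, 19 with no minimum level and 4 to 13 with 1 plate left out. For intermediate against low cells (2 members) it was 1 with TMM factors, 1 with DESeq2 factors, 4 with a pseudocount of 1 CPM, 0 with 20 CPM, 8 with no minimum level, 1 to 5 with 1 plate left out, 1 with high cells from 500 CPM and 0 with high cells from 2000 CPM. In that comparison the mitosis median turned to -0.46 with no minimum level, and Mcm5 (-1.05) turned to 1.02 with high cells from 2000 CPM and to 0.0065 with low cells under 5 CPM. A lower pseudocount or minimum level lets genes with few counts pass; for the other changes the cause was not tested.

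Counting cells with 2 mitosis genes gave 5 mitosis-read cells in the endocrine code group, 4 at E17.5 and 9 endocrine cells, and 5 genes gave 1 in the endocrine code group. With 3 replication genes the Neurog3, endocrine and E17.5 groups had 39, 34 and 43 replication-read cells, and with 8 genes 2, 2 and 2. With 8 endocrine markers 1 endocrine cell was mitosis-read. Without EA02 A5 and EA06 G5 the endocrine code group had 1 mitosis-read cell, E17.5 had 1, and 2 endocrine cells remained. The 5 alternatives that leave out named cells were chosen after seeing the data. No paired analysis was possible because each labelled group is 1 sample and replicate numbers only name cells in accession order; Neurog3-high and low cells of the same plate were set side by side, with no test. At a summed depth of 29154048 to 95204148 counts per group, 8 cells outside EA04 read the mitosis genes by the rule of the report, and the mitosis values there rest on few cells.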
